A study of Sus scrofa with 96 samples.

Results

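The genes described here are the detected members of a run of Ensembl pig identifiers, ENSSSCG00000018097 to ENSSSCG00000020600. All 61 identifiers of the run that have a symbol are short noncoding RNAs. The count tables list 1460 identifiers of this run among 25322 genes. A gene was included when its median level reached 1 CPM (reads on the gene over the reads on all genes of that library, times 1000000) in stranded mRNA libraries of liver, in stranded mRNA libraries of testis or in total RNA libraries of testis. This left 83 genes, which is 5.68% of the run. The threshold was reached by 64.1% of the 23862 identifiers outside it. The genes were thus chosen by their median CPM in these 3 library classes, and differences between these classes are described without a test.

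The samples were liver and testis of 48 Danish Landrace boars, slaughtered at 100 kg. The boars formed groups of 16 with high, medium or low genetic merit of boar taint (BT), an off-odour of pork from entire males. Merit came from breeding values of the boars' sires, not from measurements on the boars, and the labels name no treatment. Libraries were prepared with a stranded mRNA kit, which selects polyadenylated RNA, while RNA of lower integrity went into a total RNA kit, which removes ribosomal RNA but does not select for poly(A). In liver, 46 libraries were stranded mRNA (15 of low, 16 of medium and 15 of high merit) and 2 were total RNA (1 of low and 1 of high merit). In testis, 34 were stranded mRNA (7, 13 and 14) and 13 usable ones were total RNA (8, 3 and 2). All total RNA libraries were in batch 3, so kit, batch and RNA integrity cannot be told apart.

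Small nucleolar RNAs (snoRNAs) form most of the named part of the block. Box C/D snoRNAs guide 2′-O-methylation of ribosomal and spliceosomal RNA, and box H/ACA snoRNAs guide the conversion of uridine to pseudouridine. Most mammalian snoRNAs are released from introns of host genes and carry no poly(A) tail. U5 is a spliceosomal small nuclear RNA (snRNA) that holds the exon ends in the splicing reaction.

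A symbol was found for 61 of the 1460 identifiers and for 22 of the 83 genes. The 22 were 14 of the 25 box H/ACA snoRNAs in the run, 7 of its 19 box C/D snoRNAs and U5. The other 61 genes had no symbol in the tables used here and are given by identifier only. None of the 14 microRNAs and not the 1 small Cajal body RNA reached the threshold. U12, an snRNA of the minor spliceosome, stayed at a highest median of 0.451 CPM. No read was counted in any library for 674 of the 1460 identifiers. Closest to the threshold from above were ENSSSCG00000018942 (1.00 CPM), ENSSSCG00000018522 (1.08 CPM) and SNORD21 (1.08 CPM), and from below SNORA68 (0.995 CPM), ENSSSCG00000018456 (0.930 CPM) and ENSSSCG00000018813 (0.925 CPM).

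The libraries held between 3689243 and 18045966 reads on genes, so that 1 read was worth 0.0554 to 0.271 CPM. A total RNA testis library of a low-merit boar with 379942 reads on only 940 genes was left out. Liver markers were found in the livers and testis markers in the testes (5 of the 6 listed liver markers, since SERPINA1 was not matched, and all 6 testis markers), although the ranges of APOB overlapped between the tissues. A stranded mRNA testis library of medium merit in batch 1 (boar 8308) stood apart, since its correlation with other testes had a median of 0.749, and that of every other testis was at least 0.948. Its 6 testis markers, among them the protamine gene PRM1 and the Leydig cell gene INSL3, were at 0.936 to 3.78% of the testis median. Of the 83 genes, 24 were higher in this library than in all 33 other stranded mRNA testes and 5 were lower. The share over all genes is not given, so nothing is read from these counts. Some of the 24 lay at low levels, such as SNORA48 (0.195 against at most 0.130 CPM). Results that include boar 8308 are also given without this library where the text says so.

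Reads on the 83 genes were a small part of stranded mRNA libraries and a large part of total RNA libraries. They took 0.0416 to 0.297% of the reads on genes in stranded mRNA livers (median 0.0984%) and 0.0205 to 0.164% in stranded mRNA testes (median 0.0619%). In total RNA testes they took 8.08 to 18.0% (median 14.3%). The 2 total RNA livers, which played no part in choosing the genes, held 7.29 and 7.42%. The share of total RNA libraries therefore lay far above every stranded mRNA library in both tissues. Of the 83 genes, 77 reached the threshold in total RNA testes, 24 in stranded mRNA livers and 21 in stranded mRNA testes. Only in total RNA testes was it reached by 53 genes, only in stranded mRNA livers by 5 and only in stranded mRNA testes by 1, and 15 reached it in all 3 classes.

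A few genes carried nearly all of these reads. In total RNA testes ENSSSCG00000019556, ENSSSCG00000020439 and ENSSSCG00000018700 together held 92.7 to 95.5% of the reads on the 83 genes, and in the 2 total RNA livers the same 3 held 92.0 and 94.8%. In stranded mRNA livers ENSSSCG00000020149, ENSSSCG00000019556 and ENSSSCG00000020439 held 73.3 to 92.7% (median 87.9%), and these 3 also led in stranded mRNA testes (68.2 to 90.2%, median 85.3%). CPM is not divided by transcript length, so these values rank genes by their share of reads and not by molecules. None of these 4 identifiers had a symbol.

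ENSSSCG00000019556 ranged from 39.7 to 532 CPM in stranded mRNA testes (median 161) and from 55996 to 109040 CPM in total RNA testes (median 80800.4). It ranged from 68.6 to 484 CPM in stranded mRNA livers (median 204) and stood at 35476 and 47886 CPM in the high- and low-merit total RNA livers. The lowest total RNA library was thus far above the highest stranded mRNA library in either tissue. ENSSSCG00000020439 went from a median of 78.7 CPM (16.0 to 366) in stranded mRNA testes to 32467 CPM (14563 to 49621) in total RNA testes. ENSSSCG00000018700 went from 12.5 CPM (5.35 to 42.2) to 11281 CPM (4688 to 22538). ENSSSCG00000020505 went from 1.22 CPM (0.351 to 4.09) to 2064 CPM (826 to 2827). ENSSSCG00000018461 went from 7.80 CPM (1.93 to 43.9) to 923 CPM (419 to 1447). For all 5 the kits did not overlap in testis.

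ENSSSCG00000020149 was the exception among the leading genes. It had the largest share of the stranded mRNA reads, with 195 to 1855 CPM in liver (median 466.3) and 88.1 to 1028 CPM in testis (median 272). In total RNA it was at 507 and 639 CPM in the 2 livers and at 218 to 3452 CPM in testis (median 416), inside or overlapping the stranded mRNA range. Its spread between total RNA testes (highest over lowest, 15.9-fold) was wider than that of ENSSSCG00000019556 (1.95-fold). SNORA27, a box H/ACA snoRNA, and ENSSSCG00000019572 were among the 5 leading genes in 1 stranded mRNA class each and are described with the tissues.

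**Figure D1:**
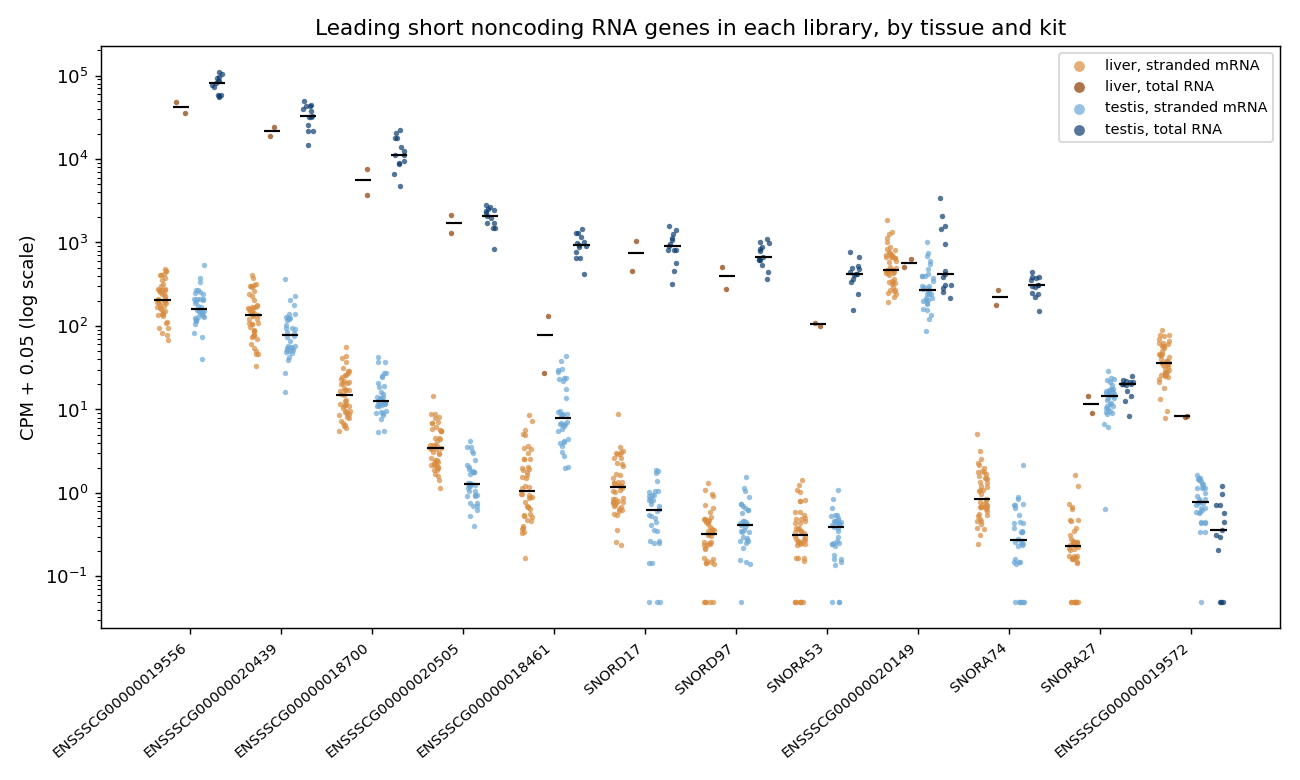
CPM plus 0.05 on a log axis for 8 leading genes and 4 further named snoRNAs. The 8 are those among the 5 of highest median in any of the 3 library classes that chose the genes. Points are libraries coloured by tissue and kit, black bars are medians. The total RNA points of ENSSSCG00000019556 (55996 to 109040 CPM in testis) lie far above its stranded mRNA points, while those of ENSSSCG00000020149 overlap them.

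Among the named genes the snoRNAs with the highest total RNA levels were close to absent from stranded mRNA libraries. SNORD17, the box C/D snoRNA with the highest level, had 0 to 1.83 CPM in stranded mRNA testes (median 0.569) and 321 to 1566 CPM in total RNA testes (median 898). SNORD97, also box C/D, had a median of 0.369 CPM (0 to 1.50) against 671 CPM (367 to 1093). SNORA53, the box H/ACA snoRNA with the highest level, had 0.337 CPM (0 to 1.02) against 423 CPM (155 to 764), and SNORA74 had 0.224 CPM (0 to 2.10) against 310 CPM (151 to 442). None of these 4 had overlapping kits in testis. The pooled fold, that is the share of all reads on genes summed over total RNA libraries divided by the same share in stranded mRNA libraries, was 1612 for SNORD97, 1415 for SNORD17, 1349 for SNORA53 and 931 for SNORA74. U5 had 13 reads in all 34 stranded mRNA testes and 170 in the 13 total RNA testes, a pooled fold of 55.7 with medians of 0 and 1.85 CPM.

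The folds were very uneven across the block. In testis a pooled fold was computed for 80 genes with more than 3 reads in both kits. It was at least 100 for 18 genes, at least 10 for 41, between 2 and 10 for 24, within 2-fold of equality for 14 and below that for 1 (ENSSSCG00000018728, 0.210). The median was 11.6. Box H/ACA snoRNAs ran from 1.29 (SNORA27) to 1349 with a median of 17.3, and 10 of the 14 were at 10-fold or more. Box C/D snoRNAs ran from 1.13 (SNORD21) to 1612 with a median of 14.5, and 4 of the 7 were at 10-fold or more. The 58 genes without a symbol that had a fold ran from 0.210 to 1321 with a median of 8.85. Every total RNA testis lay above every stranded mRNA testis for 50 of the 83 genes, and for 39 of the 63 with a mean count above 5 over the testes. Of all 15365 such genes, 3.01% lay apart in this way, but the same levels chose the 83 genes and nothing is read from the gap. For none of the 83 did every total RNA testis lie below, beside 1.17% of all genes.

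The 2 total RNA livers had not been used in choosing the genes, so the kits were compared in liver with a test. The other arm, the stranded mRNA livers, had been used, and both boars had also given total RNA testes, so the test is only partly independent of the choice. Of the 83 genes, 36 had a mean count above 5 in the stranded mRNA livers alone. A further 7 passed this minimum only through the total RNA livers, where they had to be high, and are described without a test. In a fit of limma on voom values with sample weights and merit as a covariate, 17 of the 36 were higher in total RNA livers and 1 was lower at an adjusted p (Benjamini-Hochberg over all 12225 genes) under 0.05. Over all 12171 genes with such a mean, 27.9% were called higher and 16.8% lower (44.7% in either direction). The median fitted log2 difference was 0.65 for the 36 and 0.10 for all. A log2 difference of 6 or more, a size chosen after the values were seen, was reached by 8 of the 36 and by 0.148% of all genes, and one of 4 or more by 9 and by 0.624%. Every total RNA liver lay above every stranded mRNA liver for 13 of the 36, beside 15.5% of all genes, and for none did both lie below, beside 6.22%. The comparison rests on 2 boars. With the high-merit boar left out 13 of the 36 were called higher, beside 13.1% of all such genes, and with the low-merit boar left out 17, beside 16.1%.

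Among the 36, the lowest adjusted p belonged to ENSSSCG00000020462, which went from 0.689 to 7.24 CPM in stranded mRNA livers (median 2.21) to 600 and 445 CPM in the high- and low-merit total RNA livers. The fitted log2 difference was 7.78 ± 0.22 (SE; adjusted p = 8.1e-33). ENSSSCG00000020505 followed, from 1.08 to 14.5 CPM (median 3.41) to 2135 and 1313 CPM, with a log2 difference of 8.88 ± 0.34 (SE; adjusted p = 2.1e-27). Of the snoRNAs, SNORD17 went from a median of 1.13 CPM (0.188 to 8.85) to 1042 and 458 CPM, and SNORA74 from 0.793 CPM (0.195 to 5.10) to 269 and 178 CPM. Their log2 differences were 9.23 ± 0.37 and 7.87 ± 0.31 (SE), and for each of these 4 genes both total RNA livers lay above all 46 stranded mRNA livers. The box H/ACA snoRNAs SNORA2C, SNORA8, SNORA9 and SNORA24 were also called higher, the lowest by 1.47 ± 0.60 on the log2 scale (SNORA24, adjusted p = 0.0413). The 7 genes that passed only through the total RNA livers were SNORD97, SNORA53, SNORA12, SNORA46 and 3 without a symbol. SNORD97 had 131 reads in all 46 stranded mRNA livers (0 to 1.27 CPM, median 0.271) and 509 and 281 CPM in the total RNA livers. SNORA53 had 141 reads (0 to 1.37 CPM, median 0.268) and 101 and 108 CPM.

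Several genes gave no such difference. SNORD21, SNORD5 and SNORD104, all box C/D, had fitted log2 differences of -0.30 ± 0.66, -0.33 ± 0.81 and -0.23 ± 0.60 (SE), none past the threshold. ENSSSCG00000020149 differed by 0.12 ± 0.38 (SE; adjusted p = 0.829). The only gene called lower was ENSSSCG00000019572, with 7.81 to 89.3 CPM in stranded mRNA livers (median 36.3) and 8.28 and 8.16 CPM in total RNA livers. Its log2 difference was -2.28 ± 0.56 (SE; adjusted p = 6.2e-04), the ranges overlapped, and leaving out either total RNA liver gave an adjusted p of 0.0846 or 0.125.

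Folds in both tissues ran in a similar order. For 66 genes with more than 3 reads in both kits of both tissues, Pearson's r between the log2 pooled folds was 0.91 and Spearman's rho 0.90. This is across genes, which are not independent replicates, and both boars with total RNA livers also gave total RNA testes. Of these 66, 36 were at 10-fold or more in testis, and 30 of the 36 were so in liver. The fold was larger in testis for 56 of the 66. SNORA27 stood off this line, with 1.29 in testis and 54.2 in liver, and ENSSSCG00000020462 had 56.3 in testis and 230 in liver.

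**Figure D2:**
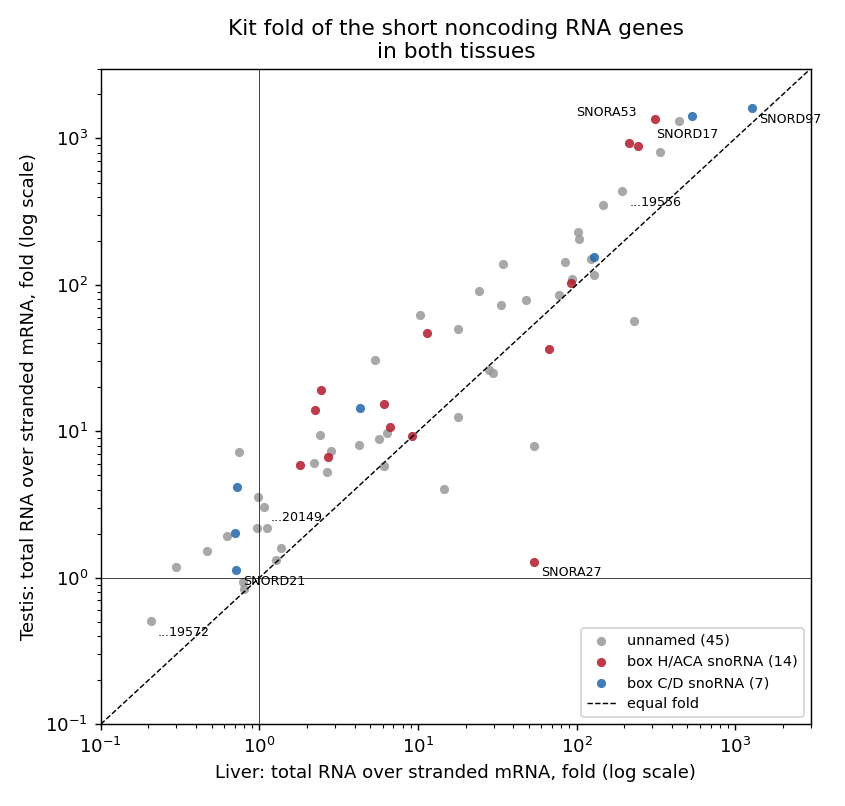
Pooled fold of total RNA over stranded mRNA in liver (horizontal, log axis) and testis (vertical, log axis) for 66 genes, coloured by RNA class, with a dashed line of equal fold. Identifiers are shortened to their last 5 digits. Most points lie above the line, up to SNORD97 (1270 in liver, 1612 in testis), and SNORA27 lies far below it (54.2 in liver, 1.29 in testis).

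Genes known to host these snoRNAs in human introns were compared with them. The 15 snoRNA and host pairs were listed from general knowledge after the values were seen, and 10 of the 14 host genes were matched by symbol. The pooled folds of the 10 hosts lay between 0.730 and 1.60 in testis and between 0.426 and 2.21 in liver. Those of their snoRNAs lay between 1.13 and 1612 in testis and between 0.716 and 1270 in liver. EIF4G2, a translation initiation factor whose human intron holds SNORD97, had medians of 908 and 928 CPM in stranded mRNA and total RNA testes and of 338 and 578 CPM in the livers. SLC25A3, the mitochondrial phosphate carrier and host of SNORA53, had 299 and 284 CPM in testis and 288 and 175 CPM in liver. CNOT1, the scaffold of the CCR4-NOT deadenylase complex and host of SNORA46, had a fold of 1.37 in testis while SNORA46 had 104. In the same fits over all genes, 3 hosts were called higher and 3 lower in total RNA testes (beside 27.4% and 39.6% of all 15365 genes, 66.9% in either direction and 69.5% at an unadjusted p under 0.05), and 3 higher and 5 lower in total RNA livers (beside 28.2% and 16.7% of all 12225 genes, 44.9% in either direction and 51.6% at an unadjusted p under 0.05). In all 10 pairs the fold of the snoRNA was the larger one in both tissues. The snoRNAs, unlike the hosts, had been chosen by their levels, most of them in total RNA testes. Nothing is therefore read from this count. SNORD21 and its host RPL5, a ribosomal protein gene, were the closest pair in testis (1.13 and 0.808).

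**Figure D3:**
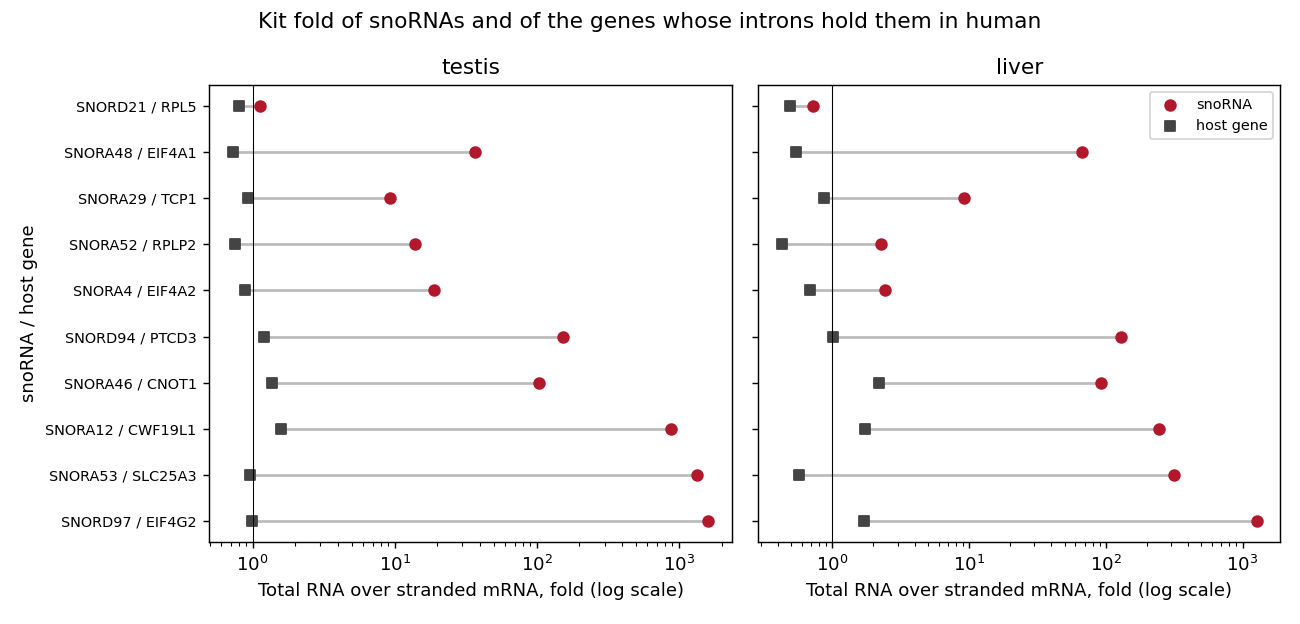
Pooled fold of total RNA over stranded mRNA (log axis) in testis and in liver for 10 snoRNAs (circles) and their human host genes (squares). The squares lie between 0.426 and 2.21 and each circle lies to the right of its square, by the most for SNORD97 (1612 in testis).

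Below the leading genes the levels fell off steeply. A median of 100 CPM was reached by 12 genes in total RNA testes, 3 in stranded mRNA livers and 2 in stranded mRNA testes, and one of 10 CPM by 25, 6 and 5. The twelfth gene was ENSSSCG00000018682, with 111 to 167 CPM in total RNA testes, 115 and 160 CPM in total RNA livers, and a median of 1.36 CPM in stranded mRNA testes (0.337 to 5.07). Among the named genes the box H/ACA snoRNAs SNORA12 (97.2 CPM, 58.6 to 153), SNORA46 (29.1 CPM, 11.5 to 42.0) and SNORA2C (21.5 CPM, 7.85 to 38.8) followed in total RNA testes, and SNORD94, a box C/D snoRNA, had 14.2 CPM (9.05 to 27.8). Each had a median under 1 CPM in both stranded mRNA classes. Without any read in the median library were 20 genes in stranded mRNA livers, 12 in stranded mRNA testes and none in total RNA testes.

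Between the tissues the stranded mRNA levels of most genes overlapped. Every stranded mRNA liver lay above every stranded mRNA testis for 1 of the 39 genes with a mean count above 5, ENSSSCG00000019572, beside 4.39% of all such genes. It had 7.81 to 89.3 CPM in liver and 0 to 1.57 CPM in testis (medians 36.3 and 0.749 without boar 8308). In the other direction no gene qualified with all testes, beside 29.5% of all genes. Without boar 8308, SNORA27, ENSSSCG00000020531 and ENSSSCG00000020591 (3 of 39) lay above every liver, beside 41.8% of all genes, and ENSSSCG00000019572 again below, beside 8.42%. SNORA27 ranged from 6.14 to 28.8 CPM in those 33 testes (median 14.8), was at 0.585 CPM in boar 8308, and ranged from 0 to 1.61 CPM in stranded mRNA livers. In total RNA it was at 8.31 to 24.8 CPM in testis and at 14.5 and 8.90 CPM in liver, where both livers lay inside the range of the testes. ENSSSCG00000020531 had no read in any liver and 0.819 to 3.16 CPM in the 33 testes. ENSSSCG00000020591 had at most 0.496 CPM in any stranded mRNA liver and 2.87 to 7.21 CPM in those testes. ENSSSCG00000018728 had no read in any liver and a median of 1.87 CPM in stranded mRNA testes (0 to 7.99). These levels chose the genes, so nothing is read from the counts. Of 79 genes with a mean count above 5 in total RNA, 24 lay lower in both livers than in all 13 testes, beside 54.5% of all genes, and 2 lay higher, beside 13.6%. Among the 24 were U5, SNORD5 and the box H/ACA snoRNAs SNORA53, SNORA12, SNORA8 and SNORA52. ENSSSCG00000019556 was also among them (35476 and 47886 CPM against at least 55996 CPM). ENSSSCG00000020555 had 2.33 and 2.47 CPM against 20.8 to 91.6 CPM, ENSSSCG00000019309 had 23.0 to 31.0 CPM against 32.3 to 105 CPM, and ENSSSCG00000018461 had 130 and 27.4 CPM against 419 to 1447 CPM. The 2 that lay higher were ENSSSCG00000019114, at 6.92 to 11.9 CPM against 0.663 to 5.40 CPM, and ENSSSCG00000019572, at 8.28 and 8.16 CPM against at most 1.16 CPM. With 2 livers, these values are given without a test.

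Within stranded mRNA libraries the leading genes rose and fell with the share of uniquely aligned reads that fell outside genes. That share was 28.9 to 55.9% in livers and 25.2 to 37.3% in testes. For ENSSSCG00000019556 Pearson's r with log2(CPM + 0.5) was 0.81 in the 46 livers (Spearman's rho 0.81) and 0.81 in the 34 testes (rho 0.74). For ENSSSCG00000020439 r was 0.84 (rho 0.81) and 0.66 (rho 0.58), and for ENSSSCG00000020149 0.82 (rho 0.83) and 0.62 (rho 0.58). For ENSSSCG00000018700 r was 0.67 (rho 0.61) and 0.59 (rho 0.57). These 8 relations had adjusted permutation p-values between 3e-05 and 6e-04 for r and between 3.75e-05 and 0.00116 for rho, two-sided, over 15 relations with 100000 permutations each, which can give no raw p below 1e-05. ENSSSCG00000019572 was more weakly related in liver (r = 0.40, rho = 0.41, adjusted permutation p = 0.00975 and 0.00882), and SNORA27 in testis had r = 0.25 and rho = 0.28 (adjusted permutation p = 0.203 and 0.155), with r = 0.083 in batch 1 and 0.56 in batch 2.

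Without the 2 libraries farthest from the median share, r of the 8 relations lay between 0.50 and 0.87. Within batch 1 (14 testes) r was 0.85 for ENSSSCG00000019556, 0.57 for ENSSSCG00000020439, 0.41 for ENSSSCG00000020149 and 0.47 for ENSSSCG00000018700. Within batch 2 (20 testes) the values were 0.80, 0.68, 0.69 and 0.63. Without boar 8308 they were 0.81, 0.67, 0.70 and 0.59. All stranded mRNA livers were in batch 1. In the 13 total RNA testes, where 40.2 to 69.9% of the reads fell outside genes, r of the 5 leading genes lay between -0.50 and -0.09, with adjusted permutation p-values of 0.123 or more (rho -0.55 to -0.07, 0.0833 or more). Both quantities come from the same libraries, and what they share was not tested. Reads on genes divide the CPM and also enter the share, so part of a positive r can be built in. The permutation p-values do not allow for this. The relation is not given for other genes, so it is not shown to be particular to these.

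**Figure D4:**
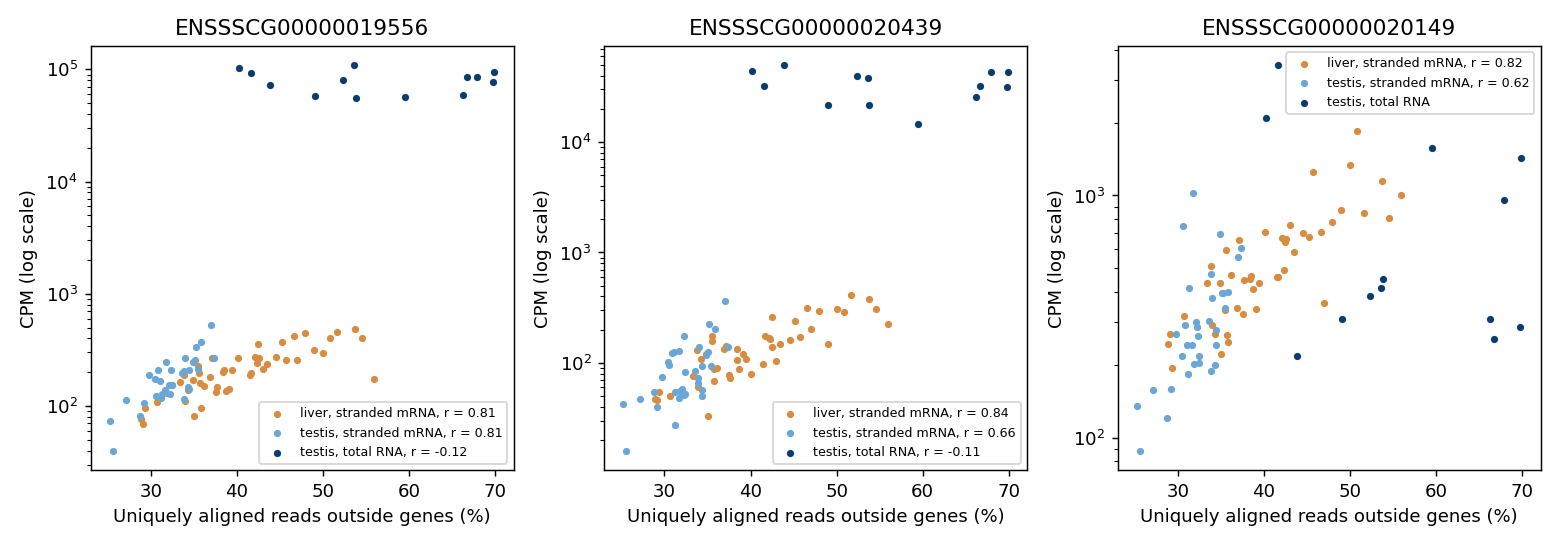
CPM (log axis) against the percentage of uniquely aligned reads outside genes for 3 leading genes, with points for libraries of each class and Pearson's r in the legend. In stranded mRNA livers and testes the points climb from left to right (r = 0.81 and 0.81 for ENSSSCG00000019556), and in total RNA testes they do not (r = -0.12).

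The share of reads on the 83 genes had medians of 0.0932% in high, 0.0768% in medium and 0.125% in low-merit stranded mRNA livers, with overlapping ranges (0.0433 to 0.173%, 0.0416 to 0.297% and 0.0594 to 0.223%). In stranded mRNA testes the medians were 0.0603%, 0.0540% and 0.0691%, again with overlap.

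Genetic merit was not used to choose the genes, and it was compared within tissue. In liver, 43 genes were tested between high and low merit with limma on all 48 libraries, following the study's design. None was called higher, beside 0.131% of all 12225 genes, and 1 was called lower, beside 3.23% (3.36% in either direction). At an unadjusted p under 0.05 there were 8 of the 43 (18.6%), beside 17.2% of all genes. The median log2 difference was -0.35 for the 43 and -0.07 for all. The call with all 48 libraries was on ENSSSCG00000018461 (limma, log2 difference -1.47 ± 0.43, SE; adjusted p = 0.0457).

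In stranded mRNA livers ENSSSCG00000018461 had 0.114 to 1.74 CPM in high merit (median 0.516), 0.295 to 8.58 CPM in medium merit (median 1.63) and 0.351 to 5.57 CPM in low merit (median 1.95). In total RNA livers the order was the other way, with 130 CPM in the high-merit and 27.4 CPM in the low-merit boar. High and low merit overlapped in stranded mRNA. With stranded mRNA livers alone the log2 difference was -1.50 (limma, adjusted p = 0.034), with kit as a covariate -0.37 (adjusted p = 0.748), and by edgeR with all livers 1.18 (adjusted p = 0.613). With TMM factors it was -1.37, without sample weights -1.23, by DESeq2 -1.56 and without a minimum count -1.42. Their adjusted p-values were 0.0904 (limma), 0.555 (limma), 0.0707 (DESeq2) and 0.0952 (limma). The call is therefore not held across settings, while the direction reversed only with edgeR. The median share of reads outside genes was 41.4% in high, 35.7% in medium and 42.5% in low-merit stranded mRNA livers, and its part in the difference was not tested. The next lowest adjusted p belonged to ENSSSCG00000019468, at 3.32 to 31.6 CPM in high merit (median 8.91) and 5.80 to 160 CPM in low merit (median 25.1), with a log2 difference of -1.19 ± 0.42 (SE; adjusted p = 0.103).

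**Figure D5:**
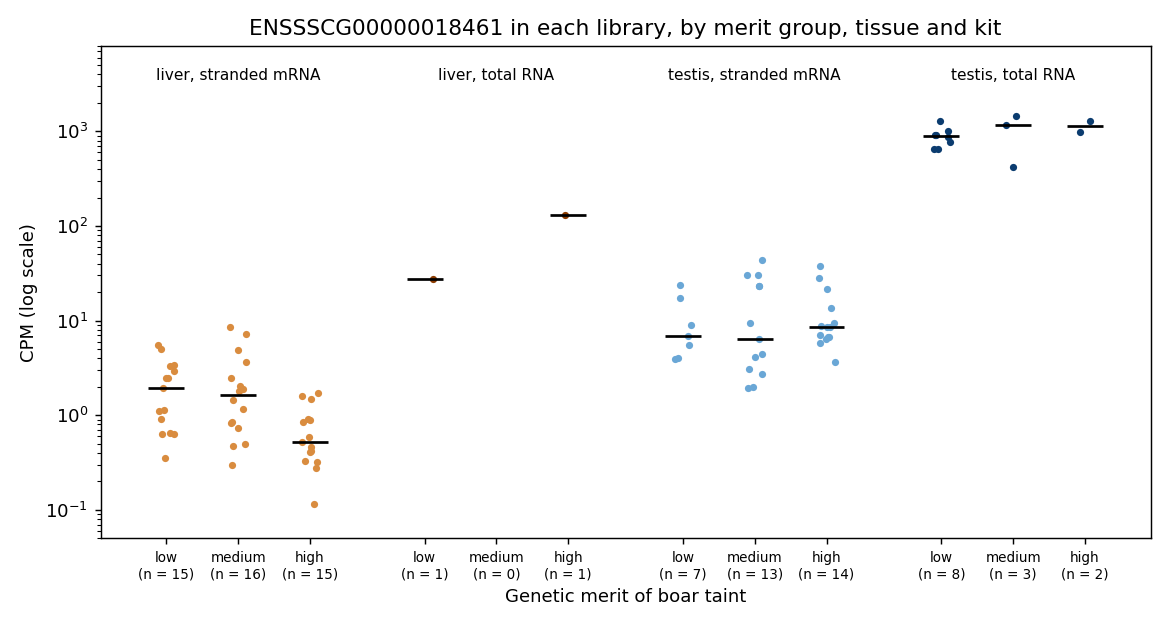
CPM of ENSSSCG00000018461 (log axis) in each library by merit group, tissue and kit, with medians as bars. In stranded mRNA livers high merit has the lowest median (0.516 against 1.95 CPM in low merit) with overlapping points, and the single total RNA livers are in the opposite order.

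In testis the merit groups differ in kit, with 8 of the 15 low-merit and 2 of the 16 high-merit libraries from total RNA. Without regard to kit, 49 of 63 tested genes were lower in high merit and 2 were higher, beside 21.3% lower and 31.2% higher of all 15365 genes (52.5% in either direction). An unadjusted p under 0.05 was found for 52, beside 58% of all. In stranded mRNA testes alone, 37 of the 83 genes had a mean count above 5. The rest of the 63 passed this minimum only through total RNA testes, which were mostly of low merit. For them a lower level in high merit was partly fixed in advance, so nothing is read from these counts. The lowest adjusted p-values were those of ENSSSCG00000020462 and ENSSSCG00000019556 (log2 differences of -4.26 ± 0.62 and -6.15 ± 0.94, SE). The 2 higher genes were ENSSSCG00000018728 (1.74 ± 0.46) and ENSSSCG00000020591 (0.62 ± 0.17). With kit as a covariate none of the 63 was called by limma, beside 2.64% of all genes. An unadjusted p under 0.05 was found for 7, but the share over all genes is not given, so nothing is read from this count. The contrast of all testes is therefore given as a description.

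In testis no merit difference was called for these genes within 1 kit. In stranded mRNA testes none of 37 genes was called between high and low merit by limma, beside 1.26% of all 15351 genes (1.01% higher, 0.254% lower). An unadjusted p under 0.05 was found for 4 of them, beside 16.1% of all genes. Both edgeR and DESeq2 called none of the 37, beside 25 and 79 of all genes. These groups are in different batches. Within batch 1 none of 37 was called by limma between medium and low merit, nor any of all 15411 genes (0%). An unadjusted p under 0.05 was found for 6, beside 14.6% of all genes. There edgeR called none of the 37 and no other gene, and DESeq2 called none of the 37, beside 7 of all genes. Without boar 8308 none of 31 was called, nor any of all 14974 genes. An unadjusted p under 0.05 was found for 4, but the share over all genes is not given, so nothing is read from this count. Within batch 2 none of 37 was called by limma between high and medium merit, beside 0.00659% of all genes. At an unadjusted p under 0.05 there were 3, beside 4.13%. Here too edgeR called none of the 37 and no other gene, and DESeq2 called none of the 37, beside 4 of all genes. In total RNA testes none of 78 was called by limma between 2 high-merit and 8 low-merit libraries, beside 0.0474% of all genes. At an unadjusted p under 0.05 there were 5, beside 7.67%. Both edgeR and DESeq2 called none of the 78, beside 24 and 221 of all genes. The lowest limma adjusted p there was that of SNORA48, a box H/ACA snoRNA (log2 difference 1.45 ± 0.51, SE; adjusted p = 0.443).

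The batches of stranded mRNA testes could be compared in medium merit, with 6 boars in batch 2 and 7 in batch 1. None of 39 genes was called by limma, nor any of all 15433 genes (0%). An unadjusted p under 0.05 was found for 11 of the 39 (28.2%), beside 10.3% of all genes. Without boar 8308 none of 35 was called, nor any of all 14955 genes. An unadjusted p under 0.05 was found for 10, but the share over all genes is not given, so nothing is read from this count. With all 13 boars the lowest p belonged to ENSSSCG00000018461, with 1.93 to 43.9 CPM in batch 2 (median 26.8) and 1.99 to 9.36 CPM in batch 1 (median 4.14). Its log2 difference was 2.50 ± 0.63 (SE; limma adjusted p = 0.288). DESeq2 alone called it (adjusted p = 0.0278), as 1 of 11 calls over all genes, and edgeR gave an adjusted p of 0.397. The same gene had 3.92 to 23.6 CPM in the 7 low-merit testes of batch 1 (median 6.87) and 3.62 to 37.5 CPM in the 14 high-merit testes of batch 2 (median 8.56).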

How the data were processed

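Liver and testis of 48 boars were sequenced (96 libraries). The deposited files hold raw read counts per Ensembl gene. The authors trimmed reads (cutadapt 1.8.1, Trimmomatic 0.33 in the submitters' processing notes), aligned reads to the Sus scrofa 10.2 genome (Ensembl 79 annotation) using STAR, and obtained gene counts from HTSeq 0.6.0, which leaves out reads without a unique alignment. Genes with near-identical copies can therefore be undercounted, and reads of an unspliced host transcript across a short RNA cannot be told apart from its own. The study names default HTSeq parameters, which count by strand, and no separate strand setting for its stranded kits. Symbols came from a table of pig gene names (11804 of 25322 identifiers matched). Groups and kits followed the labels, and batches the submitters' file labels. The genes, lists and tests were chosen with earlier results of these data known.

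Genes averaging more than 5 reads per library of a fit were tested with limma 3.58.1 (voom with sample quality weights, library sizes without scaling factors) in R 4.3.3, with Benjamini-Hochberg adjustment over all tested genes and a threshold of 0.05. Alternatives were TMM factors, voom without weights, edgeR 4.0.16, DESeq2 1.42.0, no minimum count, kit as a covariate, kits taken alone and libraries left out. The fits were also run on simulated counts, for the merit and kit comparisons of liver only. These counts had the same dispersion for every gene and no batch or library quality effects. They therefore cannot show how the fits handle such effects in the real libraries. The kit fit in testis, used for host genes, the host list and the relation to reads outside genes were added after seeing the data. Named genes were the 5 of highest median per library class, up to 2 called in each direction per comparison, those nearest the threshold and the named genes of highest level in each RNA class. Further genes are named where a paragraph turns on them and were chosen after their values were seen. P-values measure the spread between boars, which were taken as independent. The study allowed half-siblings, merit came from the sire, and no sire term was fitted. Where a fit pooled both kits without kit as a covariate, the spread includes the difference between kits. Correlations were computed with Python 3.11.15 and scipy 1.17.1.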

Additional observations from a re-analysis of the deposited data

Results flagged for a closer look

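In groups of 4 to 10 libraries of the same tissue, merit, kit and batch, the gap between the extreme library and its neighbour was compared with the group's range (Dixon's 95% critical value). Of 36 such sets, covering the 8 leading genes and the share of reads on the 83 genes, 3 were flagged, and about 1 in 20 would be by chance. All 3 were in the 7 medium-merit stranded mRNA testes of batch 1. Boar 8308, the library that stood apart, had 749.7 CPM of ENSSSCG00000020149 against at most 394 CPM in the other 6. Boar 8102 had 258 CPM of ENSSSCG00000019556 against at most 152 CPM, and 18.4 CPM of ENSSSCG00000018700 against at most 11.6 CPM.

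The total RNA testis library with 940 detected genes, left out of the comparisons above, held 240 reads on 8 of the 83 genes. It had 115 reads on ENSSSCG00000018605, 26 on SNORA29 and 21 on U5, but none on ENSSSCG00000019556, the leading gene of the other total RNA testes.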

How the results depend on the processing

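The number of genes chosen was 83, and 52 with a median of 2 CPM as the threshold, while 4 other settings gave 72 to 124. In liver, high against low merit gave 1 call, and 0 with TMM factors, without sample weights, with edgeR, with DESeq2, without a minimum count and with kit as a covariate. Calls over all 12225 genes went from 411 to 141 with TMM factors, 1 without sample weights, 1 with edgeR and 3 with DESeq2. They were 552 with kit as a covariate, and 70 of 19457 genes without a minimum count. The 1 call, ENSSSCG00000018461, reversed to a log2 difference of 1.18 with edgeR. In testis, the 51 calls of high against low merit over all libraries became 0 without sample weights, 4 with edgeR, 12 with DESeq2 and 0 with kit as a covariate, while calls over all 15365 genes went from 8068 to 296, 861, 2056 and 405. With the library of 940 genes added, 51 were called. The comparison of batches in medium merit gave 0 calls, and 1 with DESeq2, which called 11 of all 15433 genes. The cause of these changes was not tested, and counts do not say which genes remained. The 25 calls between kits in liver, 7 of them on genes that passed the minimum count only through total RNA, became 56 without a minimum count, with 80 genes tested in place of 43, and 16 to 21 with either total RNA liver left out (16 without the high-merit boar 1306). Calls over all genes between kits in liver also rose, from 5492 of 12225 to 9449 of 19457 without a minimum count. The rise to 56 is therefore not shown to be particular to these genes. Leaving out either liver left 1 total RNA library, so nothing is read from the fall to 16 to 21. In total RNA testes, leaving out each medium-merit library gave 0 calls throughout, beside 5, 6 and 8 calls over all genes. Leaving out either high-merit library left 1 library of that merit, and no counts are given for it.

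No paired analysis was possible because the merit groups compared hold different boars. Liver and testis share boars, but their levels had chosen the genes, so that difference was given no test, paired or not. A count of 0 allows up to 3 reads, or 0.166 to 0.813 CPM in the libraries used, so that levels of most genes in stranded mRNA libraries lie near what can be detected. The intervals between kits in liver rest on 2 libraries.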
